A study of Mus musculus with 50 samples.

Results

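The genes described here are 6 matrix metalloproteinases, Mmp2, Mmp3, Mmp9, Mmp12, Mmp13 and Mmp14, together with 3 of their tissue inhibitors, Timp1, Timp2 and Timp3. They were taken by gene name from a table of 56600 gene entries, in which each name matched 1 entry, so the set holds 9 of 56600. Their RNA was followed in 50 libraries of polyadenylated RNA from mouse lymph nodes, 5 in each of 10 groups. The deficient groups came from offspring of C57BL/6J dams fed a diet without vitamin A, and the sufficient groups from offspring of C57BL/6J dams fed the matched diet with vitamin A added at 20 IU/g. Dams started on their diet 3 weeks before mating, and pups of the second and the third litters were taken at postnatal day 56. In each diet there were nodes draining 4 stretches of gut (duodenum, jejunum, ileum, colon) and the skin-draining inguinal node. All 25 deficient libraries were from female mice. Among the sufficient libraries, numbers 1 and 2 of each node were from females and numbers 3, 4 and 5 from males. Litter and dam cannot be told apart from diet in this design, and nodes cannot be assigned to single mice from the labels.

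Matrix metalloproteinases are zinc-dependent enzymes that cut collagens, elastin, proteoglycans and many cell-surface proteins. Most are made as inactive precursors and are activated by proteolysis, and the tissue inhibitors (TIMPs) bind the active site and block it. In lymph nodes, fibroblastic reticular cells build a collagen network that these enzymes can remodel, and macrophages and dendritic cells use them to move through it. Retinoic acid, made in the body from vitamin A, is a ligand of nuclear receptors and is known to lower transcription of several metalloproteinase genes in cultured cells.

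Estimated counts totalled 5335369 to 8904722 per library, with a median of 7640371. Lymphocyte genes were present in every library, and the summed level of 8 lymphocyte markers was 2774 to 3679 CPM (the count scaled to library size) in deficient groups and 2474 to 3698 CPM in sufficient groups. Some libraries stood apart from the rest. In 10 deficient libraries the unannotated gene Gm19220 took 1.03 to 1.70% of counts, against 5.37 to 9.83% in the other 40, and these were 3 colonic, 3 inguinal, 2 ileal, 1 duodenal and 1 jejunal library. Pancreatic enzyme transcripts took 1.43 to 18.8% of counts in 5 duodenal libraries, deficient numbers 2, 3 and 4 and sufficient numbers 2 and 5. Levels below are CPM normalised by trimmed mean of M values, and each comparison was tested over 18077 genes by the quasi-likelihood method of edgeR, where a Benjamini-Hochberg adjusted p under 0.05 counts as passing. Brackets give a log2 fold change ± standard error with this adjusted p. Calls were repeated in alternative analyses, which are listed with the processing. For a comparison within a diet, some of these left out or modelled only libraries of the other diet. Such runs could change that comparison only through estimates shared over all libraries. Diet calls of the 8 tested members in duodenal, jejunal and ileal nodes also passed without the 10 libraries low in Gm19220. Member calls lost without these libraries are named below, with that adjusted p for all but Mmp3 between deficient duodenal and ileal nodes. Leaving them out keeps only 2 deficient colonic and 2 deficient inguinal libraries. With every library kept and a term for those low in Gm19220 in the model, all 112 member results (each tested member in each main comparison) kept their call. Nothing in the labels says whether libraries of a group came from separate mice, so the p-values measure the spread between libraries. A change in bulk RNA cannot separate fewer cells of a type from less RNA per cell.

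Promoter windows (250 bases before to 50 bases after the annotated start, RefSeq, build GRCm38.p6) were matched for 7 of the 9 genes (not Mmp2 and Mmp9), with 2 windows for Mmp12. Those of Mmp3, Mmp12, Mmp14 and Timp2 are printed 5′ to 3′ because the results below turn on these genes. Mmp3 and Mmp12 both lie on chromosome 9 and had different patterns over nodes, and Mmp14 and Timp2 lie on different chromosomes and varied together. Capitals mark matches on either strand to the AP-1 motif TGACTCA, the TATA box TATAAA, the GC box GGGCGG or the nuclear receptor motif AGGTCA.
Mmp3, chr9:7445572-7445871, plus strand: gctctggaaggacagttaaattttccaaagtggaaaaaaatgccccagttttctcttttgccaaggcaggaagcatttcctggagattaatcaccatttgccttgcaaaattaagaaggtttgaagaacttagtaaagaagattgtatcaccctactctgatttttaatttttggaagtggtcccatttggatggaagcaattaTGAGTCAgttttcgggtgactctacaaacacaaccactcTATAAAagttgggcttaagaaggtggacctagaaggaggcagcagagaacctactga
Mmp12, second window, chr9:7347124-7347423, plus strand: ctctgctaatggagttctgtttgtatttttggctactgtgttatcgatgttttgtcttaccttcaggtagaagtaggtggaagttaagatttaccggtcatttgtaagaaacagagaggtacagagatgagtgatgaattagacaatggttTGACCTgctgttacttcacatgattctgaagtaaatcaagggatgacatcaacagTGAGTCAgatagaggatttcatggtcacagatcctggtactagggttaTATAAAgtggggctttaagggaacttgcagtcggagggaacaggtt
Mmp14, chr14:54431348-54431647, plus strand: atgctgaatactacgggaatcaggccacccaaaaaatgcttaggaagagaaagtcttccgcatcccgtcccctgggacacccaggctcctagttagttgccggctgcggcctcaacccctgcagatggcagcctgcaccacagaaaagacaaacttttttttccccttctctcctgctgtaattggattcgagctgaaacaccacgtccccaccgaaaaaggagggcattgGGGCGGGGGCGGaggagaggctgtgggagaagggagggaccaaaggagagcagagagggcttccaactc
Timp2, chr11:118355362-118355661, minus strand: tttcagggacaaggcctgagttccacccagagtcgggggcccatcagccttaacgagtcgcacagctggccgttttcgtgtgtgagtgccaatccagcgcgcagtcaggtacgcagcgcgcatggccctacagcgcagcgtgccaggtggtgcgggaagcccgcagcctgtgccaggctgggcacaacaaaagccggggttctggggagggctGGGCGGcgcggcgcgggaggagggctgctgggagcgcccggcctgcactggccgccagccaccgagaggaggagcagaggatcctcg
The windows of Mmp3, Mmp12 (second window) and Mmp13, all 3 on chromosome 9, each held 1 AP-1 match, which began at base -46, -44 and -35 from the start site. The same 3 windows held a TATA match, which began at base -7 for Mmp3, 4 for Mmp12 (after the start site) and -16 for Mmp13. The second Mmp12 window also held the receptor motif, on the reverse strand at base -99. The windows of Mmp14, Timp1, Timp2 and Timp3 held GC boxes and none of the other motifs. The first Mmp12 window, which is not printed, held none of these motifs. Guanine and cytosine made up 40.0% of the Mmp3 window and 40.7% of the second Mmp12 window, against 56.0% for Mmp14 and 68.7% for Timp2. Among all 32851 windows of this length, 5.2% held the AP-1 motif, 13.62% the TATA box, 35.66% the GC box and 16.26% the receptor motif. These matches describe the letters of the windows and show no binding.

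Per kilobase of transcript, Mmp14 was the highest of the 6 enzymes and Timp2 the highest of the 3 inhibitors in every node and both diets. Other metalloproteinases and inhibitors were not placed on this scale. Levels between genes were compared on this scale, using the longest principal transcript in GENCODE M21. Mmp14, the membrane-type enzyme that activates pro-Mmp2 at the cell surface, made up 44.4 to 72.3% of the summed CPM per kb of the 6 enzymes over 50 libraries (median 63.9%). Mmp2, which cuts gelatin and collagen IV, came next with 9.80 to 39.6% (median 20.0%). Timp2, which both inhibits Mmp2 and takes part in its activation by Mmp14, made up 52.2 to 73.2% of the summed inhibitors (median 66.4%), and Timp3 21.99 to 44.9% (median 30.6%). The summed inhibitors exceeded the summed enzymes in each of the 50 libraries, by a ratio of 1.53 to 2.69 (median 2.00).

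**Figure D1:**
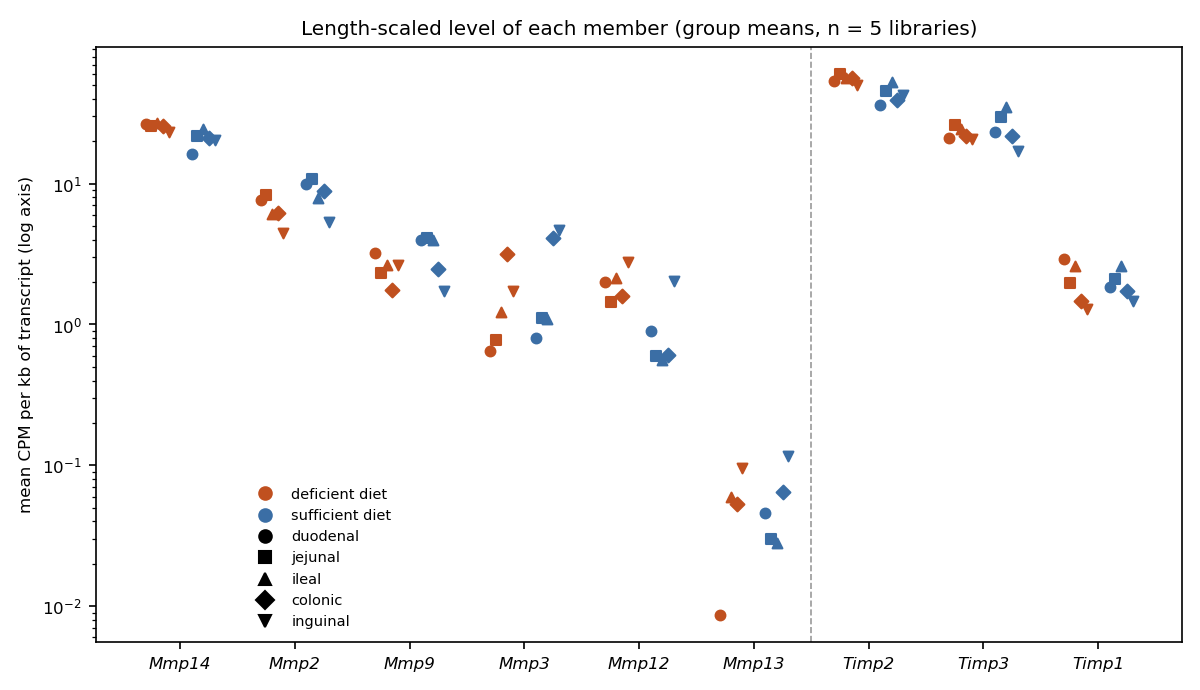
Group mean of each gene in CPM per kb of its longest principal transcript, on a log axis, with enzymes left of the dashed line and inhibitors right of it; colour is diet and marker shape is node (5 libraries a group). Mmp14 is the highest of the 6 enzymes and Timp2 the highest of the 3 inhibitors in all 10 groups; Mmp13 in deficient jejunal nodes is at 0 and cannot be drawn on this axis.

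Shares of these sums are given by diet as a description, with no test. Mmp14 was 59.6 to 72.3% of the enzyme sum per kb in deficient duodenal nodes and 44.4 to 58.2% in sufficient duodenal nodes. Timp2 was 70.1 to 72.1% of the inhibitor sum in deficient colonic nodes and 60.7 to 64.3% in sufficient colonic nodes. In both nodes the 5 deficient libraries lay above the 5 sufficient ones. The Mmp14 share also lay apart in jejunal nodes, at 63.9 to 69.7% with deficiency and 51.6 to 61.7% with sufficiency, and overlapped between diets in ileal, colonic and inguinal nodes. The Timp2 share also lay apart in duodenal, jejunal and ileal nodes, and overlapped in inguinal nodes, at 66.7 to 73.2% with deficiency and 65.7 to 71.9% with sufficiency. The ratio of inhibitors to enzymes overlapped between the diets in duodenal nodes, at 1.84 to 2.12 with deficiency and 1.76 to 2.26 with sufficiency.

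Between gut-draining and inguinal nodes on the deficient diet, 1 of the 8 genes that could be tested passed, Mmp2, against 5.78% of all genes. On the sufficient diet 5 of 8 passed, against 17.2% of all genes, and Mmp2, Mmp9 and Timp3 were higher in gut-draining nodes while Mmp3 and Mmp12 were lower. Small intestinal nodes differed from colonic nodes in Mmp3 alone on the deficient diet (1 of 8, against 1.8%) and in Mmp3 and Timp3 on the sufficient diet (2 of 8, against 3.91%). Duodenal nodes differed from ileal nodes in Mmp3 on the deficient diet (1 of 8, against 5.69%), and in Mmp14, Timp2 and Timp3, all lower, on the sufficient diet (3 of 8, against 8.21%). Gut-draining and small intestinal values are means over their nodes, and comparisons within a diet share libraries. The median log2 fold change of the tested members was -0.45 between duodenal and ileal nodes on the sufficient diet, against 0.01 for all genes, and 0.25 between gut-draining and inguinal nodes on that diet, against -0.01 for all genes.

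Single pairs of nodes were also compared, to place the nodes in order. On the deficient diet the members that passed were Mmp2, Mmp3 and Timp1 between duodenal and inguinal nodes (3 of 8, against 4.69% of all genes), and Mmp2, Mmp3 and Mmp12 between jejunal and inguinal nodes (3 of 8, against 6.46%). Mmp3 alone passed between duodenal and colonic (1 of 8, against 3.34%), jejunal and colonic (1 of 8, against 2.01%), ileal and colonic (1 of 8, against 1.18%) and colonic and inguinal nodes (1 of 8, against 1.99%). None of the 8 passed in edgeR between duodenal and jejunal (against 1.05%), jejunal and ileal (against 0.592%) or ileal and inguinal nodes (against 6.28%), where 1, 2 and 4 members had an unadjusted p under 0.05. On the sufficient diet 7 of 8 passed between ileal and inguinal nodes (against 16.1%), 6 between duodenal and inguinal (against 11%), 5 between jejunal and inguinal (against 17.1%) and 2 between colonic and inguinal nodes (against 4.3%). Timp1 was the member that passed in none of these 4. Between gut nodes of that diet, Mmp14 passed between duodenal and jejunal nodes (1 of 8, against 2.61%), Mmp3 and Mmp14 between duodenal and colonic (2 of 8, against 2.95%), Mmp3 and Timp3 between jejunal and colonic (2 of 8, against 3.27%), and Mmp3, Timp2 and Timp3 between ileal and colonic nodes (3 of 8, against 5.13%). Jejunal and ileal nodes had 0 of 8 in edgeR (against 0.531%), with 2 (Mmp2 and Timp2) at an unadjusted p under 0.05.

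**Figure D2:**
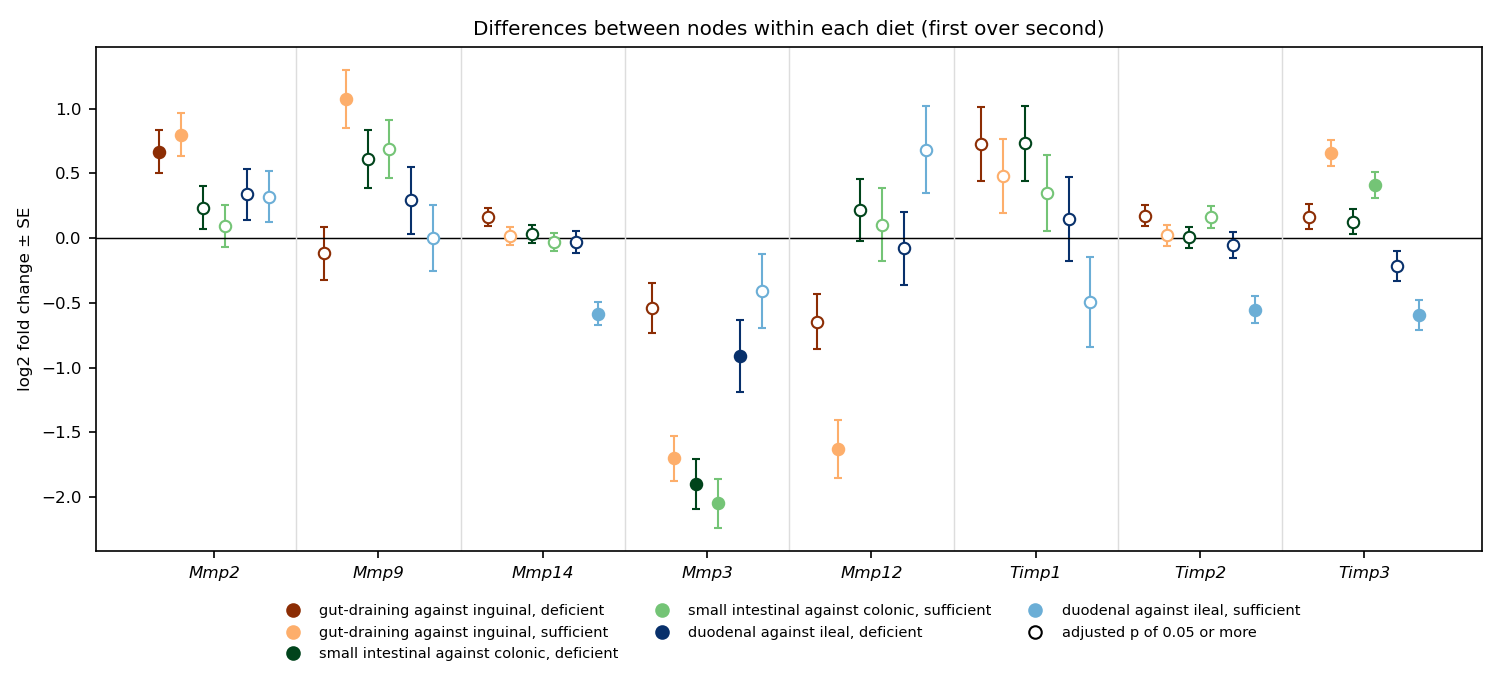
Log2 fold change ± standard error of each tested gene between nodes, first node set over second, in each diet; filled points passed at an adjusted p under 0.05 and open points did not. The lowest points belong to Mmp3, at -2.05 and -1.90 between small intestinal and colonic nodes.

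Between diets, the deficient groups had higher Mmp12, Mmp14 and Timp2 in duodenal nodes (3 of 8, against 10.3% of all genes called) and higher Mmp12 and Timp2 in jejunal nodes (2 of 8, against 4.61%). In ileal nodes Mmp12 was higher and Timp3 lower (2 of 8, against 5.81%), and in colonic nodes Mmp12 and Timp2 were higher (2 of 8, against 2.25%). In inguinal nodes Mmp3 was lower and no other member passed (1 of 8, against 0.852%). The mean of Mmp12, of Mmp14 and of Timp2 was higher with deficiency in 5 of 5 nodes, and that of Mmp2 in 0 of 5. The diet difference itself differed between gut-draining and inguinal nodes for Mmp3 and Mmp9 (2 of 8, against 0.935%), and between duodenal and ileal nodes for Mmp14 (1 of 8, against 0.232%). For small intestinal against colonic nodes it differed for 0 of 8 in edgeR (against 0.083%), with 1 (Timp3) at an unadjusted p under 0.05, and for 0 with limma-voom and with DESeq2.

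**Figure D3:**
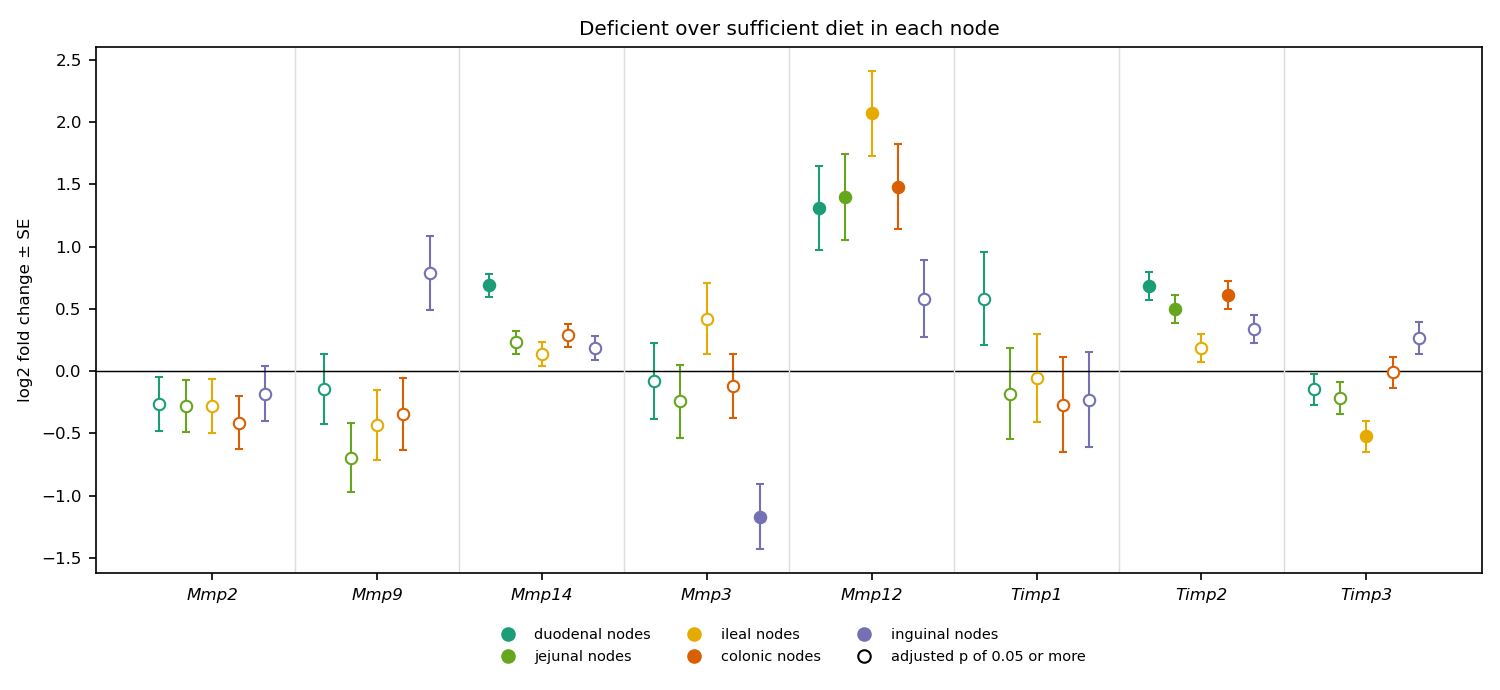
Log2 fold change ± standard error, deficient over sufficient diet, for each tested gene in each node; filled points passed at an adjusted p under 0.05. Mmp12 lies between 1.31 and 2.07 in the 4 gut-draining nodes, and Mmp3 in inguinal nodes is at -1.17.

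Mmp12 (ENSMUSG00000049723, chromosome 9), macrophage elastase, had the largest diet differences of the set in gut-draining nodes. In ileal nodes it was at 4.58, 7.31, 9.73, 7.99 and 8.65 CPM with deficiency and at 1.69, 2.54, 2.81, 2.20 and 0.814 CPM with sufficiency. All deficient ileal libraries lay above all sufficient ones (2.07 ± 0.34, adjusted p = 5.3e-05), and this call held in each of 21 alternative analyses, including females alone and without the 10 libraries low in Gm19220. In jejunal nodes Mmp12 was at 4.58, 3.48, 4.41, 4.74 and 8.88 CPM with deficiency and at 2.88, 1.11, 1.36, 2.83 and 2.52 CPM with sufficiency. In colonic nodes it was at 4.29, 5.08, 4.80, 5.54 and 8.85 CPM with deficiency and at 2.72, 1.86, 2.19, 2.40 and 1.86 CPM with sufficiency. In both nodes the diets did not overlap, with number 5 the highest deficient library (jejunal 1.40 ± 0.34, adjusted p = 0.0091, and colonic 1.48 ± 0.34, adjusted p = 0.011). In duodenal nodes Mmp12 was at 5.97, 4.91, 6.55, 6.97 and 11.7 CPM with deficiency and at 1.66, 2.49, 3.61, 5.02 and 3.38 CPM with sufficiency, which overlap by a single library on each side (1.31 ± 0.34, adjusted p = 0.0080). In inguinal nodes it was at 6.79, 6.57, 8.57, 10.6 and 17.1 CPM with deficiency and at 5.64, 7.62, 6.79, 6.61 and 9.84 CPM with sufficiency. These overlapped, and the difference did not pass (0.58 ± 0.31, adjusted p = 0.47). Exons of Mmp12 overlap those of Mmp1b on the opposite strand by 157 bases (2.17% of the merged Mmp12 exons), and the counts are not stated to use strand.

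The gut-draining calls for Mmp12 other than the ileal one depended on the libraries used. With females alone, adjusted p was 0.28 in colonic nodes (0.0035 to 0.28 over 21 alternatives) and 0.14 in jejunal nodes (0.0037 to 0.14). Without the libraries low in Gm19220 it was 0.18 in colonic nodes. Without the duodenal libraries rich in pancreatic transcripts it was 0.063 in duodenal nodes (0.0029 to 0.063), at a log2 fold change of 1.498. Leaving out sufficient number 2 ended the colonic, jejunal and duodenal calls (0.054, 0.077 and 0.051), and leaving out sufficient number 1 ended the duodenal one (0.056).

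On the sufficient diet Mmp12 was lower in gut-draining nodes, at 0.814 to 5.02 CPM (median 2.44, n = 20), than in inguinal nodes, at 5.64 to 9.84 CPM (-1.63 ± 0.22, adjusted p = 3.9e-07). The ranges did not overlap, and inguinal nodes stood above each of the other nodes taken singly. On the deficient diet gut-draining nodes were at 3.48 to 11.7 CPM (median 5.76) and inguinal nodes at 6.57 to 17.1 CPM, which overlapped and did not pass (-0.64 ± 0.21, adjusted p = 0.065), though it did in 2 of 22 alternatives (0.021 to 0.61). The difference between the diets in this contrast did not pass either (0.98 ± 0.32, adjusted p = 0.15), though it did in 1 of 21 alternatives (0.025 to 0.73). Inguinal was the highest node for Mmp12 in both diets, and the order of the 4 gut-draining nodes below it had no neighbours that passed.

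Markers of other cells were measured beside Mmp12. Of 14 macrophage markers, the deficient diet raised 2 and lowered 1 in duodenal nodes and raised 1 and lowered 4 in ileal nodes, and none was at 0 throughout a group. Their summed level was 3012 to 3971 CPM in deficient ileal nodes and 4029.9 to 5191 CPM in sufficient ileal nodes. Marco was the largest part of this sum and averaged 1040 CPM with deficiency and 1793 CPM with sufficiency. Timd4, a phosphatidylserine receptor of resident macrophages, was higher with deficiency in ileal nodes (0.90, adjusted p = 3.0e-05), while Mrc1, the mannose receptor, was lower (-0.95, adjusted p = 0.00034). Of 7 tested mast cell markers, 6 were higher with deficiency in each of the duodenal, jejunal and ileal nodes and 0 in colonic nodes. They summed to 169 to 439 CPM in deficient duodenal nodes and 46.4 to 61.8 CPM in sufficient duodenal nodes. Most of the sufficient sum was Kit, which averaged 51.1 CPM there and 36.3 CPM with deficiency. The other markers each averaged 1.85 CPM or less in sufficient duodenal nodes and 2.43 to 92.5 CPM in deficient ones. The part of the macrophage and mast cell markers in the Mmp12 result was not tested.

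Mmp3 (ENSMUSG00000043613, chromosome 9), stromelysin, which cuts proteoglycans and activates other metalloproteinases, was highest in colonic and inguinal nodes. In colonic nodes it was at 6.24, 5.54, 6.19, 5.41 and 5.31 CPM with deficiency and at 5.99, 6.42, 8.49, 5.46 and 10.9 CPM with sufficiency. Small intestinal nodes were at 0.796 to 2.64 CPM (median 1.49, n = 15) with deficiency and at 0.876 to 3.14 CPM (median 1.85) with sufficiency. Every colonic library lay above every small intestinal library of its diet (sufficient diet -2.05 ± 0.19, adjusted p = 1.9e-10), and on both diets the call held in each of 22 alternatives. Over the 5 sufficient nodes the order ran inguinal, colonic, jejunal, ileal and duodenal. Its only step between neighbours that passed was from colonic to jejunal nodes. On the deficient diet colonic nodes came first and inguinal second, a step that passed (colonic over inguinal 0.88, adjusted p = 0.037).

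In inguinal nodes Mmp3 was at 2.64, 3.92, 3.91, 3.47 and 1.64 CPM with deficiency and at 4.94, 6.93, 11.5, 5.62 and 13.2 CPM with sufficiency. All 5 deficient libraries lay below the lowest sufficient one (-1.17 ± 0.26, adjusted p = 0.016). The sufficient females were at 4.94 and 6.93 CPM, and with females alone the fold change was -0.93 with adjusted p = 0.17 (0.0012 to 0.26 over 21 alternatives). Without the libraries low in Gm19220 it was -1.20 with adjusted p = 0.26, and without sufficient number 2, deficient number 1 or deficient number 5 the adjusted p was 0.16, 0.057 and 0.054. The 3 deficient inguinal libraries low in Gm19220 were at 1.64 to 3.92 CPM and the other 2 at 2.64 to 3.47 CPM. In the 4 gut-draining nodes no diet difference in Mmp3 passed, with log2 fold changes of -0.24 to 0.42. Gut-draining nodes were below inguinal nodes by -1.70 ± 0.18 on the sufficient diet (adjusted p = 5.9e-10) and by -0.54 ± 0.195 on the deficient diet (adjusted p = 0.10). The difference between those contrasts passed (1.16 ± 0.28, adjusted p = 0.024) but not in 7 of 21 alternatives, and it was 0.84 with females alone (adjusted p = 0.36; 0.010 to 0.45 over the alternatives). Leaving out deficient number 1, 4 or 5 or sufficient number 5 ended it (0.066, 0.059, 0.11 and 0.11), as did leaving out the libraries low in Gm19220 (0.45). Of the fibroblast and reticular cell markers, 1 of 12 rose with deficiency in inguinal nodes and 0 fell, and of 8 fat tissue markers 1 rose. Their part in the Mmp3 result was not tested.

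Between duodenal and ileal nodes on the deficient diet, Mmp3 was at 1.47, 0.796, 0.989, 1.32 and 1.26 CPM in duodenal nodes and at 2.06, 2.06, 2.64, 2.07 and 2.19 CPM in ileal nodes. The ranges did not overlap (-0.91 ± 0.28, adjusted p = 0.041). The call was lost in 11 of 22 alternatives. Among them were DESeq2, limma-voom, leaving out the libraries low in Gm19220 and leaving out each of the deficient numbers in turn. Without the libraries rich in pancreatic transcripts the log2 fold change was -0.69 (adjusted p = 0.50, with 0.024 to 0.50 over the alternatives). These libraries hold few Mmp3 reads, down to 6 counts.

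Mmp13 (ENSMUSG00000050578, chromosome 9), a collagenase, was at the limit of detection. It had 0 counts in 25 of 50 libraries and at most 5 in any, and it did not pass the filter on low counts. All 5 deficient jejunal libraries were at 0, and a count of 0 allows up to 0.341 to 0.412 CPM in them (3 counts of the library's total, counting error only). The highest library was at 0.554 CPM. Sufficient inguinal nodes were the 1 group in which every library had a count, at 0.282, 0.554, 0.151, 0.125 and 0.437 CPM. Tested without that filter in edgeR, 0 of 14 comparisons passed and 3 had an unadjusted p under 0.05. The lowest adjusted p, 0.14, was that of gut-draining against inguinal nodes on the deficient diet, where gut-draining nodes were lower (-2.05).

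Mmp14 (ENSMUSG00000000957, chromosome 14) stood out in duodenal nodes. It was at 71.9, 74.02, 71.3, 61.4 and 64.3 CPM with deficiency and at 43.9, 38.9, 43.9, 39.8 and 46.0 CPM with sufficiency. The 2 diets did not overlap (0.69 ± 0.09, adjusted p = 1.6e-06), and the call held in each of 21 alternatives. The other nodes had higher means with deficiency, at 60.9 to 70.2 CPM, against 53.3 to 63.6 CPM with sufficiency, and none passed (0.14 to 0.29, adjusted p 0.090 to 0.48). In colonic nodes the call was made without sufficient number 1 (0.43, adjusted p = 0.027; 0.027 to 0.84 over 21 alternatives). It was also made with the replicate block, which here joined equal numbers of both diets.

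Sufficient duodenal nodes were the low group for Mmp14. Their 38.9 to 46.0 CPM lay below the 56.6 to 73.4 CPM of sufficient ileal nodes (-0.58 ± 0.09, adjusted p = 1.2e-05), and duodenal nodes were also below jejunal, colonic and inguinal nodes of that diet without overlap. On the deficient diet duodenal nodes were at 61.4 to 74.02 CPM and ileal nodes at 65.0 to 74.4 CPM (-0.03 ± 0.09, adjusted p = 0.91). The difference between the diets in this contrast passed (0.55 ± 0.12, adjusted p = 0.038), but not in 12 of 21 alternatives, over which the log2 value stayed between 0.47 and 0.60 and the adjusted p ran from 0.0088 to 0.68. It was lost without deficient number 1, 2, 3 or 5, without sufficient number 1, 3 or 4, and without the libraries low in Gm19220 (0.12) or rich in pancreatic transcripts (0.29). Its mean in deficient nodes spanned only 60.9 CPM (inguinal) to 70.2 CPM (ileal), and no pair of nodes on that diet passed.

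Mmp2 (ENSMUSG00000031740, chromosome 8) had the same order of means in both diets, jejunal, duodenal, colonic, ileal and inguinal. No pair of gut-draining nodes passed for Mmp2 on either diet. Taken singly on the deficient diet, duodenal and jejunal nodes passed against inguinal nodes, and ileal and colonic nodes did not. Deficient gut-draining nodes were at 13.9 to 30.3 CPM (median 22.6, n = 20) and deficient inguinal nodes at 12.7, 11.2, 20.5, 12.1 and 11.6 CPM. Sufficient gut-draining nodes were at 18.2 to 48.7 CPM (median 27.9) and sufficient inguinal nodes at 11.1, 15.4, 21.3, 13.1 and 21.5 CPM. Gut-draining nodes were higher on both diets (deficient 0.67 ± 0.17, adjusted p = 0.0073; sufficient 0.80 ± 0.17, adjusted p = 0.00045), though the ranges overlapped. The sufficient call held in each of 22 alternatives. The deficient one was lost without the libraries low in Gm19220 (0.10) and without deficient number 1 or 2 (0.075 and 0.066; 0.0013 to 0.10 over the alternatives). Jejunal nodes were at 30.3, 28.8, 23.6, 23.3 and 22.8 CPM with deficiency and at 31.2, 37.7, 32.2, 30.5 and 34.2 CPM with sufficiency. These did not overlap, but the diet difference did not pass with a term for sex (-0.28 ± 0.21, adjusted p = 0.54) or without it.

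Mmp9 (ENSMUSG00000017737, chromosome 2), the gelatinase of neutrophils and macrophages, separated nodes on the sufficient diet. Sufficient gut-draining nodes were at 4.66 to 14.9 CPM (median 13.03) and sufficient inguinal nodes at 2.96, 3.46, 11.6, 4.49 and 4.92 CPM. The number 3 inguinal library lay far above the other 4. Gut-draining nodes were higher (1.07 ± 0.23, adjusted p = 0.00048) in each of 22 alternatives, and without sufficient number 3 the log2 fold change was 1.51 (adjusted p = 1.3e-05; 1.3e-05 to 0.0097 over the alternatives). Deficient gut-draining nodes were at 2.21 to 13.8 CPM (median 8.15) and deficient inguinal nodes at 8.17, 11.5, 4.79, 9.06 and 8.19 CPM, with no difference that passed (-0.12 ± 0.21, adjusted p = 0.89). The contrasts differed between diets (-1.19 ± 0.30, adjusted p = 0.035), but this call was lost in 11 of 21 alternatives (0.0025 to 0.46). Among them were leaving out deficient number 1, 2, 4 or 5, sufficient number 1, 2, 4 or 5, or the libraries low in Gm19220 (0.46), while without sufficient number 3 the value was -1.63 (0.0025). In the same contrast on the sufficient diet, 4 of 8 neutrophil markers were lower in gut-draining nodes. Of 14 macrophage markers, 11 were higher and 1 lower, against 17.2% of all genes called in either direction. Macrophage markers summed to 2286 to 2710 CPM in sufficient duodenal nodes, 4029.9 to 5191 CPM in sufficient ileal nodes and 1282 to 1730 CPM in sufficient inguinal nodes. Of these sums Marco alone averaged 870, 1793 and 263 CPM. The part of the neutrophil and macrophage markers in the result was not tested.

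In jejunal and ileal nodes Mmp9 did not overlap between diets. In jejunal nodes it was at 8.93, 7.21, 6.67, 7.85 and 5.88 CPM with deficiency and at 14.02, 13.7, 10.4, 13.5 and 13.4 CPM with sufficiency. Neither difference passed in the model with a sex term (jejunal -0.70 ± 0.28, adjusted p = 0.15; ileal -0.43 ± 0.28, adjusted p = 0.45), and neither passed in any of 21 alternatives.

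**Figure D4:**
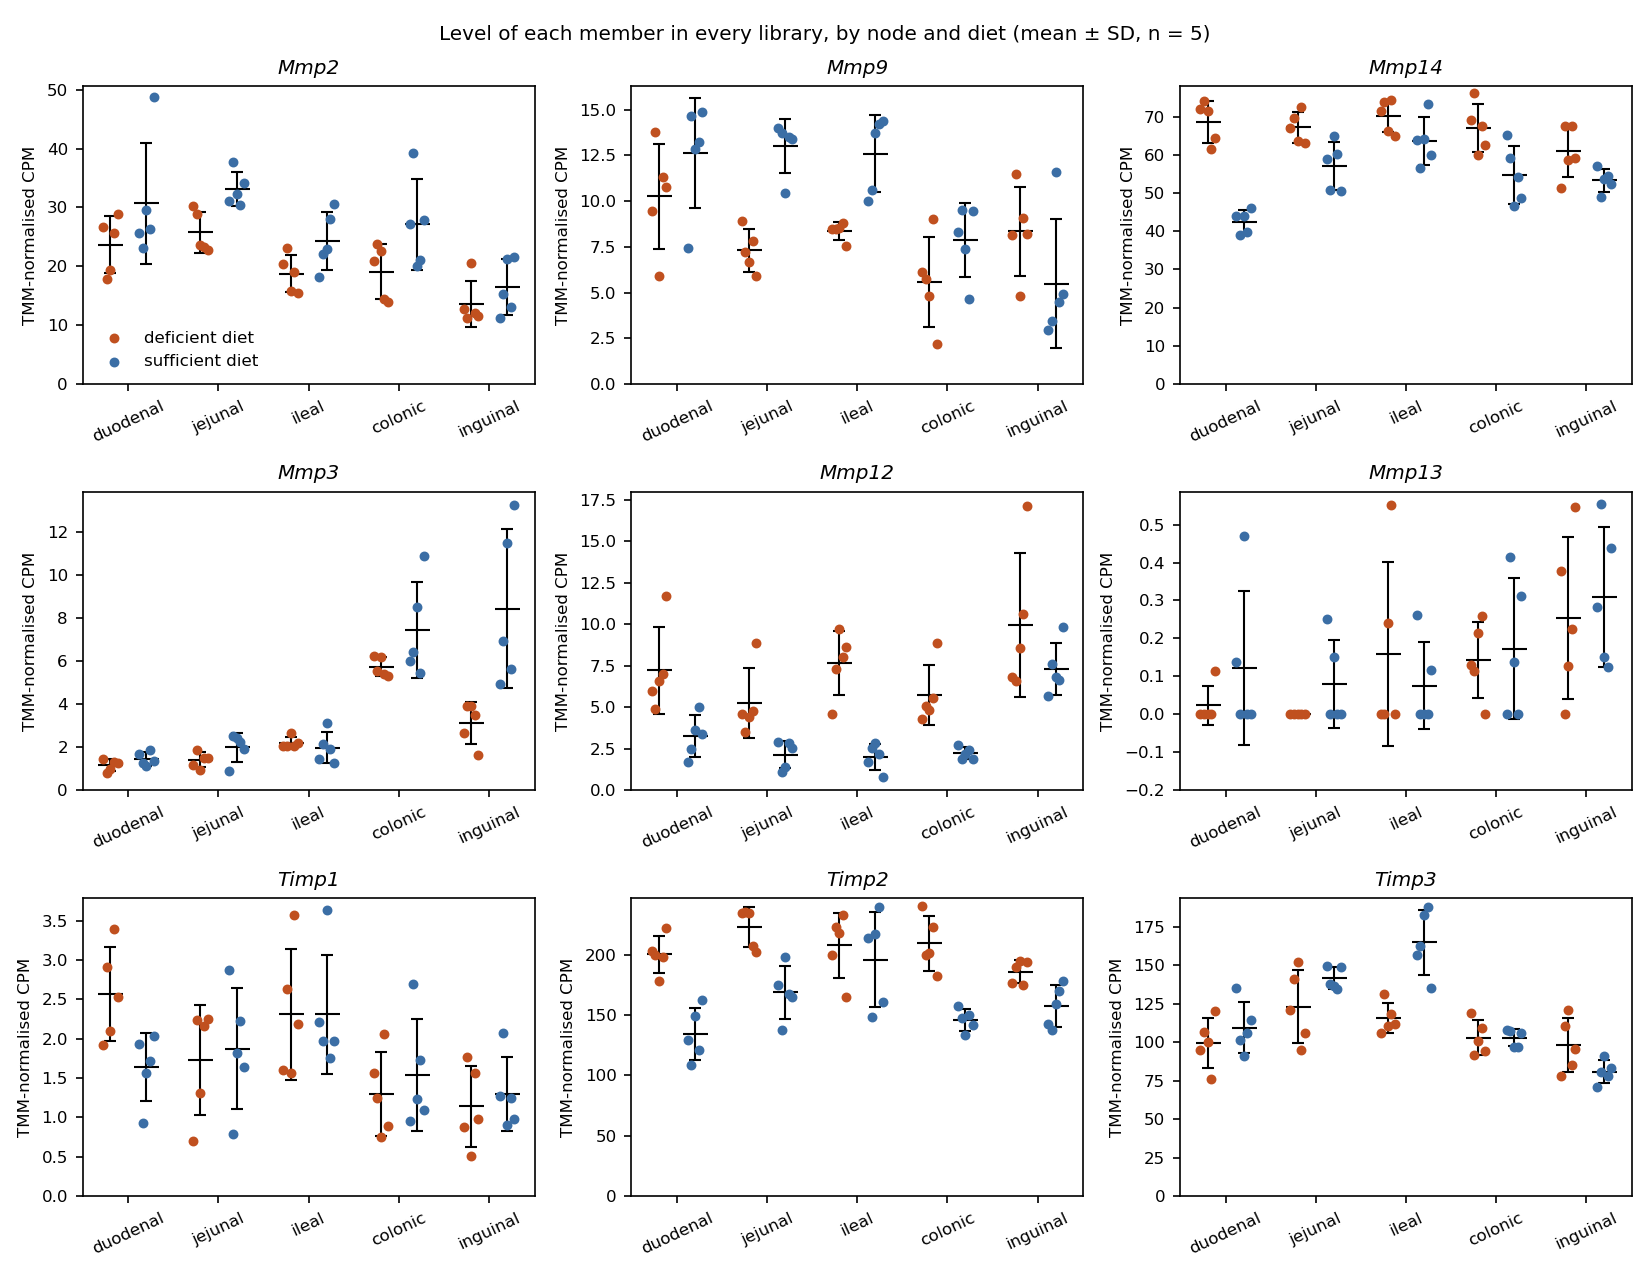
TMM-normalised CPM of each gene in every library, by node, with deficient libraries in orange left of sufficient ones in blue; bars are mean ± SD of 5 libraries, and each panel has its own scale. Mmp12 sits higher with deficiency in the gut-draining nodes, Mmp3 is high in colonic and inguinal nodes, and Mmp14 and Timp2 are lowest in sufficient duodenal nodes.

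Timp2 (ENSMUSG00000017466, chromosome 11) was higher with deficiency in 3 nodes, without overlap in any of them. In duodenal nodes it was at 203, 200.04, 178, 198 and 222 CPM with deficiency and at 129, 109, 149, 121 and 162 CPM with sufficiency. In colonic nodes it was at 240.4, 199.6, 202, 223 and 182 CPM with deficiency and at 157, 148, 133, 149.8 and 142 CPM with sufficiency. In jejunal nodes it was at 235, 235, 234, 207 and 202 CPM with deficiency and at 175, 138, 198, 167 and 165 CPM with sufficiency. The duodenal difference (0.68 ± 0.11, adjusted p = 4.3e-05) held in each of 21 alternatives. The colonic one (0.61 ± 0.11, adjusted p = 0.00069) was lost with females alone (0.46, adjusted p = 0.15; 3.4e-05 to 0.15 over the alternatives). The jejunal one (0.50 ± 0.11, adjusted p = 0.0043) was lost with females alone (0.052) and without sufficient number 2 (0.096, the highest of 21). In ileal and inguinal nodes the means were 208 and 186 CPM with deficiency and 196 and 157 CPM with sufficiency, and neither passed (adjusted p = 0.41 and 0.16).

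On the sufficient diet Timp2 was lower in duodenal nodes, at 134 ± 21.5 CPM, than in ileal nodes, at 196 ± 39.3 CPM (SD, n = 5 each; -0.55 ± 0.10, adjusted p = 0.00034). With females alone this was -0.61 with adjusted p = 0.060 (1.8e-05 to 0.060 over 22 alternatives). On the deficient diet the means were 200.3 ± 15.5 CPM in duodenal nodes and 208 ± 27.0 CPM in ileal nodes (-0.05 ± 0.10, adjusted p = 0.86). The difference between the diets in this contrast did not pass (0.50 ± 0.15, adjusted p = 0.14). No pair of nodes passed for Timp2 on the deficient diet.

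Timp3 (ENSMUSG00000020044, chromosome 10), an inhibitor that stays bound to the matrix and also blocks ADAM proteases, was highest in ileal and jejunal nodes on the sufficient diet. In ileal nodes it was at 106, 131, 111, 118 and 112 CPM with deficiency and at 157, 162, 182, 188 and 135 CPM with sufficiency. The deficient libraries all lay below the sufficient ones (-0.52 ± 0.13, adjusted p = 0.0068), and with females alone the difference was -0.46 with adjusted p = 0.18 (0.0017 to 0.18 over 21 alternatives). In the other 4 nodes the log2 fold change was -0.22 to 0.27 and none passed. On the sufficient diet gut-draining nodes were at 90.7 to 188 CPM (median 135) and inguinal nodes at 70.7, 80.4, 91.0, 77.9 and 83.2 CPM (0.66 ± 0.10, adjusted p = 2.4e-06), and this held in each of 22 alternatives. On the deficient diet they were at 76.1 to 152 CPM (median 108) in gut-draining nodes and at 77.7, 110, 121, 85.4 and 95.3 CPM in inguinal nodes (0.17 ± 0.09, adjusted p = 0.42). The difference between those contrasts did not pass (-0.49 ± 0.13, adjusted p = 0.058), though it did in 4 of 21 alternatives (0.025 to 1). Sufficient small intestinal nodes were above colonic nodes (0.41 ± 0.10, adjusted p = 0.0079), and sufficient duodenal nodes below ileal nodes (-0.59 ± 0.12, adjusted p = 0.00067). With females alone these had adjusted p = 0.39 and 0.45 (0.0016 to 0.39 and 5.6e-05 to 0.45 over 22 alternatives), and leaving out sufficient number 4 ended the small intestinal call (0.063). Exons of Timp3 overlap those of Syn3 on the opposite strand by 1733 bases (21.3% of the merged Timp3 exons), and the counts are not stated to use strand. Syn1, Syn2 and Syn3 together summed to 1.497 to 7.34 CPM.

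Beside the 3 genes that were lower in duodenal than in ileal nodes on the sufficient diet, 10 of 14 macrophage markers and 5 of 8 endothelial markers were lower. Macrophage markers summed to 2286 to 2710 CPM in duodenal nodes and 4029.9 to 5191 CPM in ileal nodes, and endothelial markers to 645 to 809.8 CPM in duodenal nodes and 906 to 1145 CPM in ileal nodes. Within the macrophage sums Marco alone averaged 870 and 1793 CPM. All 9 tested pancreatic genes were higher in duodenal nodes. The lower Mmp14, Timp2 and Timp3 of duodenal nodes passed with and without the libraries rich in pancreatic transcripts. The part of the macrophage and endothelial markers was not tested.

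Timp1 (ENSMUSG00000001131, chromosome X), the inducible inhibitor, was low throughout, at 0.504 to 3.63 CPM and 4 to 26 counts per library. It passed in none of the main comparisons between nodes or diets. Its lowest mean was in inguinal nodes on both diets, at 1.14 ± 0.52 CPM with deficiency and 1.30 ± 0.47 CPM with sufficiency (SD, n = 5 each). Among single pairs of nodes, deficient duodenal nodes, at 1.92 to 3.39 CPM, were above deficient inguinal nodes, at 0.504 to 1.77 CPM (1.15, adjusted p = 0.040).

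Other genes of the pathway also differed between nodes. Of 14 matrix substrates, 13 could be tested, and 10 were higher in gut-draining than in inguinal nodes on the deficient diet and 9 on the sufficient diet, with 0 lower in either (median 0.52 and 0.71, against -0.01 for all genes). Lum, which encodes the collagen-binding proteoglycan lumican, averaged 27.3 to 49.8 CPM in deficient gut-draining nodes against 3.44 CPM in deficient inguinal nodes (3.49 ± 0.19, adjusted p = 5.1e-18). On the sufficient diet it averaged 23.6 to 62.6 CPM in gut-draining nodes against 4.56 CPM in inguinal nodes (3.27 ± 0.19, adjusted p = 1.5e-17). Fn1, fibronectin, and Col14a1, a fibril-associated collagen, were higher in gut-draining nodes on both diets (Fn1 1.25 and 1.26, Col14a1 2.15 and 1.94, on the deficient and the sufficient diet). Mmp2 was also higher in gut-draining nodes on both diets, and Mmp3 and Mmp12 were lower there on the sufficient diet. Fibroblast and reticular cell markers split in this contrast, with 1 higher and 4 lower of 12 on the deficient diet and 4 higher and 4 lower on the sufficient diet.

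Among the 17 other metalloproteinases, 9 could be tested. Mmp25, a membrane-anchored enzyme of leukocytes, was higher with deficiency in duodenal nodes, at 36.0 ± 8.501 CPM against 17.6 ± 4.02 CPM (0.95 ± 0.20, adjusted p = 0.0011), and in jejunal nodes, at 24.3 ± 6.91 CPM against 13.5 ± 2.90 CPM (SD, n = 5 each; 0.76 ± 0.20, adjusted p = 0.018). No other of the 9 passed between diets in any node. Of 11 tested inhibitors beyond the TIMPs, 2 rose and 2 fell with deficiency in duodenal nodes. A2m, the plasma protease inhibitor alpha-2-macroglobulin, fell in duodenal, jejunal and ileal nodes (-1.78, -1.70 and -2.38), and Spock2, a testican that acts on membrane-type enzymes, rose in duodenal and jejunal nodes (0.90 and 0.68).

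Of 14 tested activators and partners, Furin, the convertase that activates pro-Mmp14 inside the cell, rose with deficiency in duodenal, jejunal and ileal nodes (0.55, 0.51 and 0.40). In duodenal nodes it averaged 73.2 ± 2.82 CPM with deficiency and 46.8 ± 7.05 CPM with sufficiency (SD, n = 5 each; adjusted p = 0.00015). Plat, tissue plasminogen activator, rose in ileal nodes (1.84 ± 0.42, adjusted p = 0.0038), where it averaged 86.5 ± 51.3 CPM with deficiency and 21.1 ± 7.78 CPM with sufficiency. Adamdec1, a soluble metalloprotease of gut macrophages and stroma, fell in all 4 gut-draining nodes (-1.93, -1.45, -2.01 and -1.54 in duodenal, jejunal, ileal and colonic nodes). In ileal nodes it averaged 4.09 ± 1.25 CPM with deficiency and 18.3 ± 2.48 CPM with sufficiency (SD, n = 5 each; adjusted p = 4.7e-09). Of 6 tested AP-1 factors, Junb and Jund rose in duodenal, jejunal and ileal nodes (Junb 0.56, 0.30 and 0.30, Jund 0.56, 0.44 and 0.41) and none fell.

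The genes most like each member over the 50 libraries were named by Pearson's r of log2(CPM + 1), a description over libraries that share groups, sex and depth. Those closest to Mmp14 were Tcf3 (r = 0.88) and Nucb1 (0.83), and those closest to Timp2 were Ucp2 (0.83) and Mmp14 itself (0.82). Timp3 was closest to Csf1 and Kdr (0.91 each), Mmp2 to Dcn (0.81) and Psg22 (0.80), and Mmp9 to Dhrs3 (0.71). Mmp3 was closest to Bpifb3 and Hoxc10 (0.83 each), and Mmp12 to Scart2 (0.82) and Scart1 (0.81). The low Timp1 and Mmp13 had weaker partners, Cpne2 (0.62) for Timp1 and Gm44078 (0.56) and Gm43488 (0.54) for Mmp13.

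Within groups, few members varied together. After group means and sex were removed, Mmp14 and Timp2 had r = 0.55 over 50 libraries, Timp2 and Timp3 r = 0.46, and Mmp14 and Timp1 r = 0.31, and no other pair was above 0.30. Mmp3 and Mmp12, both on chromosome 9, had r = -0.07.

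**Figure D5:**
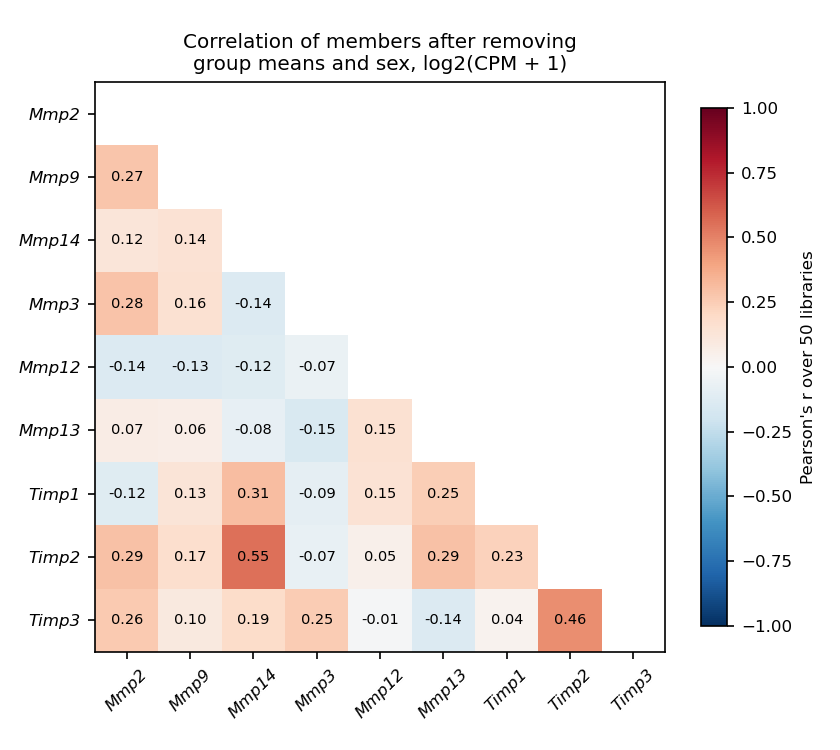
Pearson's r between members over 50 libraries after removing group means and a sex term, on log2(CPM + 1). The 2 highest values are Mmp14 with Timp2 (0.55) and Timp2 with Timp3 (0.46).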

How the data were processed

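RNA was sequenced in 50 poly(A) libraries of mouse lymph nodes. Per the labels, the authors deposited estimated counts per gene. They are not whole numbers in most cells (0.122% of nonzero values lie within 1e-06 of a whole number), and the submitters' processing notes name kallisto, limma, edgeR, GRCm39 and mm10, with roles and versions not given in the sources used here. Counts were rounded; 379 of 56600 entries carry no name. In edgeR 4.0.16 (R 4.3.3), genes were filtered with filterByExpr over the 10 groups, normalised by TMM and fitted with one mean per group and a sex term over all 50 libraries. The sex term rests on sufficient libraries, since every deficient library is female. Comparisons were tested by the quasi-likelihood F test with Benjamini-Hochberg adjustment over all 18077 genes, and the standard error is the fold change divided by the square root of F. The steps were tested on simulated data.

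Alternatives, run for the members, were other size factors, other filters, limma-voom (limma 3.58.1), DESeq2 1.42.0, other sex handling, females alone, 1 diet alone, a replicate block, leaving out or modelling the libraries under 3% Gm19220, leaving out those over 1% pancreatic transcripts, and leaving out each replicate number of a diet in all 5 nodes. Members and gene lists were chosen with earlier results of these data known. All 9 members are named; from each list, up to 4 genes with the smallest adjusted p in a comparison; and the 2 genes most correlated with each member, of which some are not reported here. Transcript lengths came from GENCODE M21 and promoters from RefSeq (GRCm38.p6), and motifs were searched on both strands. Zero limits use 3 counts per library. These limits cover counting error only.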

Additional observations from a re-analysis of the deposited data

Results flagged for a closer look

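Of 89 groups of 5 libraries in which a member was detected, 11 held a library whose gap to its nearest neighbour was large for the group's range, and chance gives about 1 in 20. Mmp12 was highest in number 5 of the deficient colonic nodes (8.85 CPM, others 4.29 to 5.54) and of the deficient jejunal nodes (8.88 CPM, others 3.48 to 4.74). Mmp9 was high in sufficient inguinal number 3 (11.6 CPM, others 2.96 to 4.92). It was low in sufficient duodenal number 1 (7.46 CPM, others 12.9 to 14.9), sufficient jejunal number 3 (10.4 CPM, others 13.4 to 14.02) and deficient ileal number 5 (7.55 CPM, others 8.45 to 8.81). Mmp2 was high in deficient inguinal number 3 (20.5 CPM, others 11.2 to 12.7), a library low in Gm19220, and in sufficient duodenal number 5 (48.7 CPM, others 23.0 to 29.6), where pancreatic transcripts took 18.8% of counts. Mmp3 was high in deficient ileal number 3 (2.64 CPM, others 2.06 to 2.19), also low in Gm19220, and Timp1 in sufficient ileal number 3 (3.63 CPM, others 1.76 to 2.21). Mmp13 in deficient duodenal number 5, at 0.115 CPM, is 1 count against 0 in the others.

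The diet difference itself differed between node sets for 3 genes in edgeR's test of the interaction. For gut-draining against inguinal nodes it was 1.16 for Mmp3 and -1.19 for Mmp9, and for duodenal against ileal nodes it was 0.55 for Mmp14 (log2, deficient over sufficient).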

How the results depend on the processing

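No member call changed direction in any alternative; the direction of values that did not pass was not followed. The counts of members past the threshold stayed at 1 (small intestinal against colonic nodes, deficient diet), and stayed within 1.5 times of 5 (gut-draining against inguinal nodes, sufficient diet) and of 3 (diet in duodenal nodes); the small intestinal against colonic interaction stayed at 0. For gut-draining against inguinal nodes on the deficient diet the count of 1 was 2 with limma-voom, 2 with the replicate block and 0 without the libraries low in Gm19220, and 0 to 2 when leaving out 1 number. For duodenal against ileal nodes on the deficient diet the count of 1 was 0 without a filter, with limma-voom, with DESeq2, without the sex term, without the libraries low in Gm19220 and without those rich in pancreatic transcripts, and 0 to 1 when leaving out 1 number. With females alone the count was 1 for small intestinal against colonic and 1 for the duodenal to ileal contrast of the sufficient diet, and between diets 0 in jejunal, 1 in ileal, 0 in colonic and 0 in inguinal nodes. Without the libraries low in Gm19220 it was 1 in colonic and 0 in inguinal nodes. Leaving out 1 number gave 1 to 2 (small intestinal against colonic, sufficient), 0 to 2 (diet, jejunal), 1 to 2 (diet, colonic) and 0 to 2 (diet, inguinal). The gut-draining against inguinal interaction, at 2, was 1 without a filter, 1 without the sex term, 1 with females alone, 4 with the replicate block, 0 without the libraries low in Gm19220, 1 without those rich in pancreatic transcripts, and 0 to 2 when leaving out 1 number. The duodenal against ileal interaction, at 1, was 0 without a filter, without the sex term, with females alone, without the libraries low in Gm19220 and without those rich in pancreatic transcripts, and 0 to 1 when leaving out 1 number. The cause was not tested. Females alone leave 2 libraries in each sufficient group. Timp1 (4 to 26 counts) and Mmp13 (0 to 5 counts) rest on few reads per library.

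Replicate numbers were checked for pairing. Over 100 pairs of same-numbered libraries of a diet, residual correlations ran from -0.224 to 0.402 (median 0.0845), 43 were above 0.1, and in 45 the best match was the library's own number (31 of 50 with deficiency, 14 of 50 with sufficiency), where unrelated numbers would give about 1 in 5. In the deficient libraries all 5 of number 3 were low in Gm19220, and Mmp12 was highest in number 5 in 4 of 5 nodes. In the sufficient libraries sex goes with the number. These values are a hint that equal numbers share a source, which the labels do not state, and since not every pair was above 0.1 the block stayed an alternative. With the replicate block 5 more member calls were made and none was lost. They were Mmp12 in gut-draining against inguinal nodes on the deficient diet (-0.60, adjusted p = 0.021), Mmp12 (1.04, 0.025) and Timp3 (-0.48, 0.049) in that interaction, Mmp9 in small intestinal over colonic nodes on the sufficient diet (0.70, 0.041) and Mmp14 between diets in colonic nodes (0.34, 0.035). For comparisons between diets the block was the number alone, so it joined equal numbers of both diets. The pairing check covered only libraries of the same diet and gives no basis for that block.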
